A study of Homo sapiens with 3 samples.

Results

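The 14-3-3 proteins are a family of small acidic adaptors, and their mRNAs were followed here through an RNA pull-down with the RNA-binding protein ZFP36L1. The family was taken by name as the 7 genes YWHAB, YWHAE, YWHAG, YWHAH, YWHAQ, YWHAZ and SFN, out of 52992 genes in the tables. GENCODE 29 assigns 55 of the 196354 deposited transcript rows to these genes, and 29 of the 55 held a count in at least 1 library. All 7 genes passed the minimum of 10 counts on average over the libraries.

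J82 cells, an established line from a human bladder cancer, were lysed, and RNA bound by a protein fused to glutathione S-transferase (GST) was recovered and sequenced. The groups were RNA bound by GST alone, by GST-ZFP36L1 wild type and by the GST-ZFP36L1-Ala mutant, and all came from the same untreated line. There was 1 library per group, so the spread between replicates is unknown and no p-value is given. The residues that the mutant carries as alanine are not stated in the labels. The data are levels of mRNA in each pull-down and say nothing of the amounts of 14-3-3 protein.

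14-3-3 proteins form dimers whose grooves bind short motifs around a phosphorylated serine or threonine, and so they hold clients in the cytoplasm, mask their surfaces or block their partners. Members of the ZFP36 family are such clients. MK2 phosphorylates ZFP36, and AKT and MK2 phosphorylate ZFP36L1, which then binds 14-3-3 and is less able to bring the decay machinery to an mRNA. ZFP36L1 itself recognises AU-rich stretches, above all UAUUUAU, in the untranslated region behind the stop codon of an mRNA (the 3' UTR). 6 of the genes encode broadly expressed isoforms, and SFN encodes 14-3-3 sigma, an isoform of epithelial cells that p53 induces.

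Library totals were between 19137867 and 19845386 estimated counts, and genes of the mitochondrial genome took 7.53% to 15.5% of the counts matched to genes. Ratios were scaled with TMM (trimmed mean of M values) and are shares of a library, not amounts of RNA. In each ratio a gene was called higher or lower when it differed by at least 2-fold and its 95% counting interval excluded 1, and that interval covers counting error only. The comparisons share libraries with each other and are not independent. The names of the deposited tables carry 1 run code for both ZFP36L1 libraries and another for GST, and the sources used here do not say what the code stands for. Ratios over GST cross this difference and cannot be told apart from it, whereas wild type over mutant lies within 1 code. Keratins 7, 8 and 18 and vimentin were present, whereas KRT5, KRT19, KRT20 and UPK3A were at 0 in all 3 libraries, and no leukocyte, erythroid or hepatocyte marker reached 10 counts.

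The family as a whole took a larger share of the RNA recovered with wild-type ZFP36L1. The 7 genes held 68354 estimated counts with GST, 134224 with the wild type and 49098 with the mutant, or 0.372%, 0.703% and 0.268% of the counts matched to genes. The summed family was 1.85-fold higher with wild type than with GST (log2 0.89, 95% interval 0.88 to 0.90) and 2.34-fold higher than with the mutant (log2 1.23, 1.21 to 1.24). Mutant over GST lay at log2 -0.34 (-0.35 to -0.32). These sums were dominated by YWHAZ, the zeta isoform, which held 40.1%, 53.9% and 39.4% of the family's counts in GST, wild type and mutant. Without YWHAZ the wild-type sum was 1.43-fold over GST (log2 0.51) and 1.78-fold over the mutant (log2 0.84), both under 2-fold.

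The members did not move together. With wild-type ZFP36L1 against GST, 3 of 7 genes (YWHAQ, YWHAG and YWHAZ) were called higher and 2 (YWHAB and SFN) lower, while 25.5% of all 14082 measured genes were called higher and 34.2% lower. The median log2 ratio of the 7 was 0.84, against -0.04 for all measured genes. The family thus held called members on both sides, as the whole table did. With the mutant against GST, none of the 7 was called, where 9.00% of all genes were called higher and 5.13% lower. Member ratios there ran from log2 -0.63 to 0.73, with a median of -0.20 against 0.04 for all genes. For wild type against mutant, 4 of 7 (YWHAE joining the former 3) were called higher and 2 lower, against 30.1% and 36.1% of all genes.

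**Figure D1:**
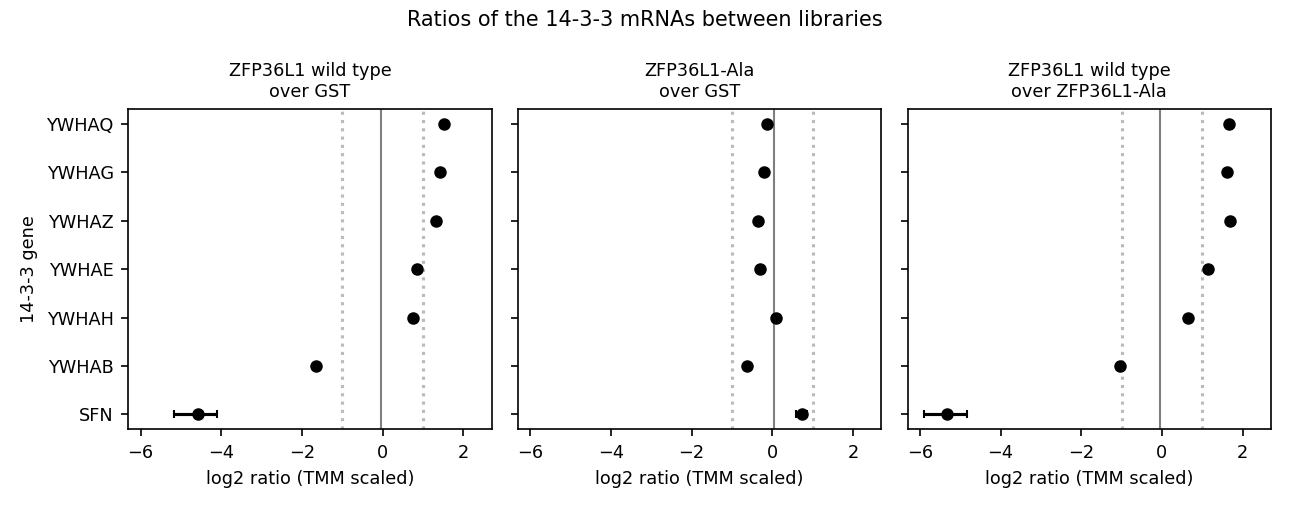
Log2 ratio of each 14-3-3 gene (points) with its 95% counting interval (bars) in the 3 comparisons; the solid line is the median of all measured genes and the dotted lines mark 2-fold. YWHAQ, YWHAG and YWHAZ lie right of the upper 2-fold line in the first panel, SFN lies at -4.59, and all 7 genes lie between the lines in the middle panel.

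Levels were compared between genes on the scale of TPM, a share of the library's transcripts corrected for length. Summed over all transcripts of each gene, YWHAZ ranked first and YWHAE second in every library. YWHAZ stood at 407 TPM with GST, 1120 with wild type and 277 with the mutant, and YWHAE, the epsilon isoform, at 329, 548 and 228. YWHAB, the beta isoform, followed YWHAE with GST (230 TPM) and with the mutant (123 TPM), but stood next to last with the wild type (83.9 TPM). YWHAQ followed YWHAE there. It is the theta isoform and stood at 488 TPM with the wild type, against 147 with GST and 110 with the mutant. YWHAH, the eta isoform, stood at 71.3, 139 and 62.7 TPM, and YWHAG, the gamma isoform, at 34.9, 107 and 25.0 TPM. SFN was last with GST (26.4 TPM) and with the wild type (1.25 TPM), but stood above YWHAG with the mutant (36.2 TPM). The counting intervals of neighbours in these orders did not overlap in any library, but spread between libraries of 1 group could not be measured. These orders are of gene sums, not of coding transcripts. The main coding form of YWHAE, YWHAE-201, stood at 60.1 TPM with GST, 314 with wild type and 29.8 with the mutant. That of YWHAH, YWHAH-201, stood at 2.14, 0.491 and 4.21 TPM. The split of a gene between its transcripts is itself an estimate.

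**Figure D2:**
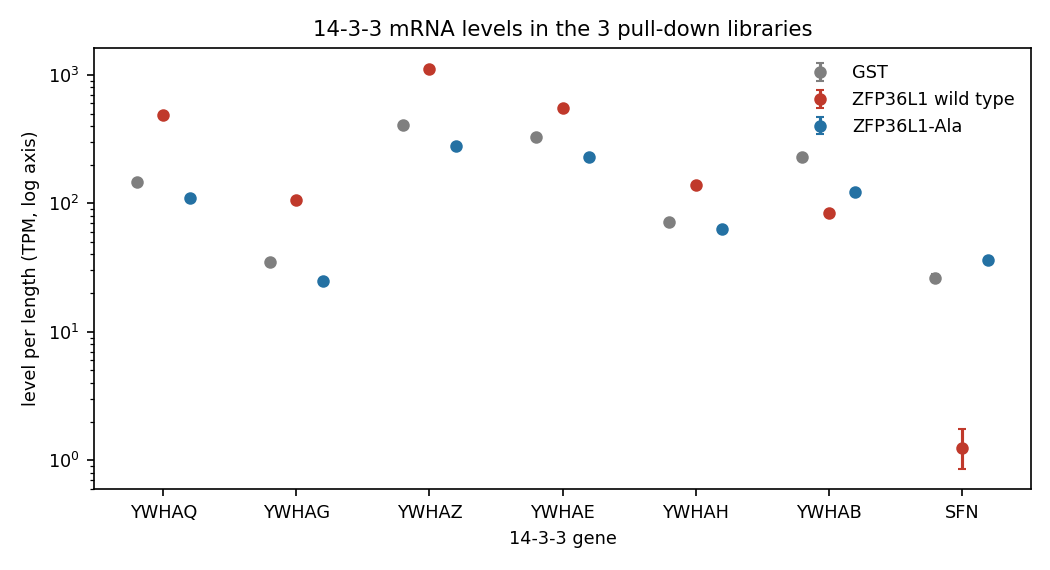
Level of each 14-3-3 gene in TPM on a log axis for the GST (grey), wild-type (red) and mutant (blue) libraries; bars are 95% counting intervals, mostly hidden by the points. The wild-type point is the highest of the 3 for YWHAQ, YWHAG, YWHAZ, YWHAE and YWHAH, and the lowest for YWHAB and SFN, the latter at 1.25 TPM.

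YWHAQ had the highest ratio of the family over GST. It lies on chromosome 2 (9583972 to 9631014 of GRCh38, minus strand; ENSG00000134308) and had 7311 estimated counts with GST, 22312 with wild type and 6020 with the mutant. Only the wild-type library was high. Wild type over GST was 2.88-fold (log2 1.53, 1.49 to 1.57), wild type over mutant 3.18-fold (log2 1.67, 1.63 to 1.71), and mutant over GST log2 -0.14. Its ratio over GST lay above 87.4% of all measured genes. Almost all of it (99.5% of counts with GST) was assigned to 1 protein-coding transcript, YWHAQ-201.

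YWHAG, encoded on chromosome 7 (76326794 to 76359031, minus strand; ENSG00000170027) and known for its abundance in brain and muscle, had 3055, 8594 and 2420 counts in GST, wild type and mutant. It was 2.66-fold higher with wild type than with GST (log2 1.41, 1.35 to 1.47) and 3.04-fold higher than with the mutant (log2 1.61, 1.54 to 1.67). It has a single transcript in the tables.

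YWHAZ, the most abundant member, is encoded on chromosome 8 (100916525 to 100953388, minus strand; ENSG00000164924) and is often found at raised levels in carcinomas. It had 27410, 72324 and 19366 counts, high in the wild-type library alone. Wild type was 2.49-fold over GST (log2 1.32, 1.30 to 1.34) and 3.20-fold over the mutant (log2 1.68, 1.66 to 1.70), and mutant over GST was log2 -0.36.

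The main YWHAZ transcripts parted in the mutant library. YWHAZ-211 held 78.0% of the gene's counts with GST, 75.5% with wild type and 48.9% with the mutant, and YWHAZ-201 held 15.5%, 17.4% and 44.3%. In counts, YWHAZ-211 had 21374, 54606 and 9475, and YWHAZ-201 had 4242, 12583 and 8575. Against GST, both were called higher with the wild type (log2 1.27 and 1.49). With the mutant, YWHAZ-211 was called lower (log2 -1.03, -1.07 to -1.0) and YWHAZ-201 higher (log2 1.16, 1.10 to 1.21), so the gene's sum hid opposite ratios. These transcripts carry different first exons of 144 and 73 bases, and YWHAZ-211 runs 107 bases further at its 3' end. They share 97.5% of the 31-mers (words of 31 bases, as kallisto matches reads) of YWHAZ-201. Their split is therefore an estimate from the few reads that tell them apart, and its error is larger than the counting interval. A longer form, YWHAZ-206, extends 2054 bases beyond YWHAZ-211 and was called higher with wild type over GST (log2 1.63, from 1533 to 5040 counts).

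**Figure D3:**
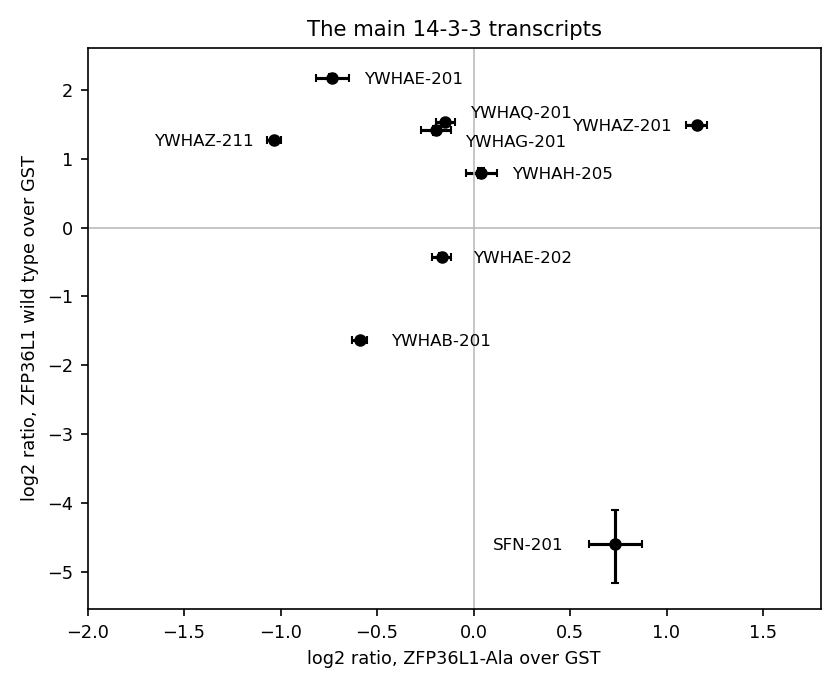
Log2 ratio over GST of the 9 main 14-3-3 transcripts with the mutant (horizontal) and with wild-type ZFP36L1 (vertical); bars are 95% counting intervals. YWHAZ-211 and YWHAZ-201 lie at similar heights (1.27 and 1.49) on opposite sides of 0 for the mutant, YWHAE-201 (2.18) lies far above YWHAE-202 (-0.42), and SFN-201 is alone at the bottom right.

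YWHAE, encoded on chromosome 17 (1344272 to 1400378, minus strand; ENSG00000108953) in a region deleted in a syndrome of disturbed neuronal migration, had 10898, 20656 and 8027 counts. The gene as a whole was 1.79-fold higher with wild type than with GST (log2 0.84, 0.81 to 0.87), under the 2-fold limit, and 2.21-fold higher than with the mutant (log2 1.14, 1.10 to 1.18). Behind this sum lay transcripts of unlike ratio. YWHAE-201, the full protein-coding form, had 3003 counts with GST, 14392 with wild type and 1641 with the mutant. YWHAE-202, which GENCODE types as a target of nonsense-mediated decay, had 7879, 6229 and 6373. The first was high in the wild-type library alone, whereas the other was highest with GST and differed less between libraries. YWHAE-201 was 4.53-fold higher with wild type than with GST (log2 2.18, 2.12 to 2.24) and 7.51-fold higher than with the mutant (log2 2.91, 2.84 to 2.98), and YWHAE-202 lay at log2 -0.42 (-0.47 to -0.37) and -0.26 (-0.31 to -0.21). The share of YWHAE counts in YWHAE-201 was 27.6% with GST, 69.7% with wild type and 20.4% with the mutant.

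These YWHAE forms differ at both ends. YWHAE-201 has 6 exons. YWHAE-202 starts in the second of them, lacks part of the third and all 207 bases of the fourth, and ends 267 bases earlier. The stretch that only YWHAE-201 has at its 3' end holds the sole UAUUUAU found in the 3' UTRs of the 7 genes. The site is 1 of several differences between these forms, and its part in their ratios was not tested. It lies at chr17:1344294-1344322 (GRCh38, minus strand) in exon 6, within the 3' UTR and 33 bases from the transcript's end. The sequence is that of GENCODE 29, read 5′ to 3′ on the sense strand in DNA letters, with the site in capitals.
YWHAE-201 site: cagcaacatggTATTTATtttaatcatta
A further YWHAE transcript, the retained-intron form YWHAE-203, also held 1 UAUUUAU and was called higher with wild type over GST (log2 1.34, 0.39 to 2.47), on only 12 and 33 counts. It ends in intron sequence of the gene, and its site is at chr17:1361706-1361734 (minus strand).
YWHAE-203 site: tagcttttgctTATTTATattcttttgtt
The site of YWHAE-201 is a match of letters and not a measured binding site. All bases of YWHAE-202 lie within YWHAE-201, and 97.9% of its 31-mers are found there, so most reads of YWHAE-202 could come from either form.

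**Figure D4:**
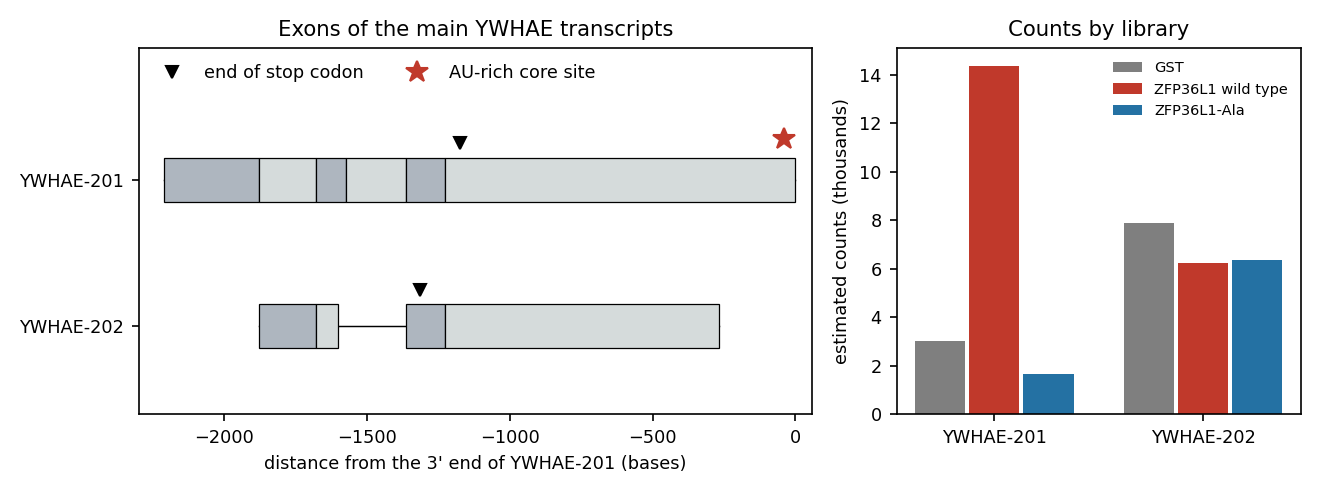
Left, exons (boxes) of the main YWHAE transcripts placed by distance in bases from the 3' end of YWHAE-201 with introns left out, with the ends of the stop codons (triangles) and the AU-rich core site (star). Right, estimated counts for both forms in the GST, wild-type and mutant libraries. The site lies beyond the end of YWHAE-202, and only the wild-type bar of YWHAE-201 (14392 counts) rises above the others.

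YWHAH, encoded on chromosome 22 (31944461 to 31957603, plus strand; ENSG00000128245), had 2731, 4875 and 2655 counts. It was 1.69-fold higher with wild type than with GST (log2 0.75, 0.69 to 0.82) and 1.57-fold higher than with the mutant (log2 0.65, 0.59 to 0.72), both under 2-fold, although with TPM the latter passed it (log2 1.14). Mutant over GST was log2 0.10, and it turned below 0 when scaled by total counts (-0.04), by totals that leave out the most abundant genes (-0.11) or by TPM (-0.18). Of its counts, 96.8% with GST, 99.6% with wild type and 92.9% with the mutant were assigned to YWHAH-205, which GENCODE types as a processed transcript without a coding sequence. YWHAH-201, the coding form, had 86, 18 and 188 counts and was called lower with wild type over GST (log2 -2.31, -3.16 to -1.59) and higher with the mutant (log2 1.26, 0.89 to 1.65). The forms share the last exon of 1465 bases, 84.4% of YWHAH-205, and end at the same base. They differ in their first exons, and 84.2% of the 31-mers of YWHAH-205 are found in YWHAH-201, so their split is an estimate too. Counting only protein-coding transcripts turned the gene's ratio over GST to log2 -2.33, because that leaves out YWHAH-205.

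YWHAB, on chromosome 20 (44885676 to 44908532, plus strand; ENSG00000166913), encodes an isoform known to bind RAF kinases. It was the one YWHA gene that was lower with the wild-type protein. It had 16211 counts with GST, 5431 with wild type and 9496 with the mutant, so it was highest with GST. Wild type was 3.16-fold below GST (log2 -1.66, -1.70 to -1.62), and mutant over GST was log2 -0.63 (-0.67 to -0.59). Wild type over mutant was log2 -1.03 (-1.08 to -0.98), just past 2-fold. With total counts it was -0.86, with totals that leave out the most abundant genes -0.71, with no minimum count -0.96 and with TPM -0.55, all under 2-fold. YWHAB-201 held 94.1% to 96.7% of its counts in the 3 libraries.

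SFN, on chromosome 1 (26863138 to 26864457, plus strand; ENSG00000175793), consists of a single exon. It had 738 counts with GST, 32 with wild type and 1114 with the mutant, so the wild-type library stood far below the others. Wild type was 24.1-fold below GST (log2 -4.59, -5.17 to -4.10) and 40.0-fold below the mutant (log2 -5.32, -5.90 to -4.84), and 1.83% of all measured genes had a lower ratio over GST. Mutant over GST was log2 0.73 (0.60 to 0.87). Of 14 listed markers of urothelial and other epithelial cells, where SFN is normally expressed, 4 reached 10 counts in every library. The 14 summed to 713, 63.5 and 1080 TPM, a sum carried by KRT18, KRT7 and KRT8, which had the same order of libraries as SFN. UPK1A was about level (21, 20 and 24 counts), and EPCAM was highest with the wild type (11, 55 and 3 counts). The 8 listed mesenchymal markers summed to 1013, 98.7 and 645 TPM, nearly all of it VIM. CDH2 (186, 150 and 109 counts) and COL1A1 (49, 23 and 36 counts) were also highest with GST, whereas FN1 (8.27, 21.7 and 6.53 TPM) and ZEB1 (3.55, 7.33 and 1.67 TPM) were highest with the wild type. The part of these shifts in the SFN ratio was not tested.

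The 3' UTRs of the family were read from each gene's most abundant coding transcript by mean TPM, which for YWHAH is the little-counted YWHAH-201. UAUUUAU was searched on the sense strand, with overlapping matches counted. It was in 31.1% of 11428 measured protein-coding genes, whose median log2 ratio of wild type over GST was 0.94 with the site and -0.68 without it. Genes without the site also had shorter 3' UTRs (median 631 against 2291 bases) of higher GC content (44.7% against 37.6%). The part of length and composition in these medians was not tested. Only YWHAE of the 7 had the site. Of genes with a 3' UTR within 20% of the same length, it was in 56.1% for YWHAG (2783 bases), 44.9% for YWHAZ (2114), 44.5% for YWHAB (2094), 31.4% for YWHAQ (1314), 29% for YWHAE (1175), 23.7% for YWHAH (811) and 15.7% for SFN (498). YWHAQ, YWHAG and YWHAZ were called higher without the site, and their ratios over GST lay above 91.8%, 90.1% and 88.5% of the 7877 genes that lack it. Those genes were not matched to these members in 3' UTR length or GC content. The absence of these letters says nothing of other forms of AU-rich element.

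The shorter core AUUUA, which every UAUUUAU also holds, was in 67.9% of the 3' UTRs of measured genes. It occurred 9 times in YWHAZ, 6 in YWHAG, 5 in YWHAQ, 3 each in YWHAB and YWHAH, 2 in YWHAE and 0 in SFN. Genes with a 3' UTR within 20% of the same length had a median of 4 for YWHAZ and YWHAB, 6 for YWHAG, 2 for YWHAQ and YWHAE, and 1 for YWHAH and SFN. The matches of YWHAQ, the gene with the highest ratio, and of YWHAB, the YWHA gene with the lowest, are set side by side (GENCODE 29, GRCh38, sense strand, 5′ to 3′, AUUUA in capitals as DNA letters). Those of YWHAQ are on the minus strand and run from chr2:9584983-9585011 at the top to chr2:9584199-9584227, and those of YWHAB are on the plus strand at chr20:44906722-44906750 and chr20:44908119-44908147, the latter holding its other 2 matches, of which the first is marked.
YWHAQ-201 match 1: aatgtatctggtATTTAagtaatctgaac
YWHAQ-201 match 2: tagttaattacaATTTAaagagtattcca
YWHAQ-201 match 3: ctagtgattgttATTTAgagagttggacc
YWHAQ-201 match 4: attttataaaccATTTActatggctttgt
YWHAQ-201 match 5: agggacaggtgaATTTActactttctaaa
YWHAB-201 match 1: tggggttttgtaATTTAgcagaactctta
YWHAB-201 match 2: gagaaaagaaaaATTTAtgcactgattta

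Base composition set SFN apart from the rest. Its 3' UTR had a GC content of 63.1%, above 96.6% of measured genes, whereas the YWHA genes lay between 35.7% (YWHAZ) and 41.8% (YWHAG), below or near the median of all genes, 41.8%. Among 438 other genes within 2 percentage points of SFN in GC, the median log2 ratio of wild type over GST was -2.99, with quartiles of -3.59 and -2.15, so SFN at -4.59 was below the lower quartile. Among 1649 genes close to YWHAB (38.7%) the median was 0.72, with quartiles of -0.08 and 1.35, and YWHAB at -1.66 lay below the lower one. YWHAQ (35.8%, 1.53) and YWHAG (41.8%, 1.41) lay above the upper quartiles of genes like them, 1.5 and 1.15. The gene sums of YWHAZ, YWHAE and YWHAH lay within the quartiles. For YWHAE and YWHAH the 3' UTR was that of YWHAE-201 and YWHAH-201, while other forms held most of their counts with GST. Taken alone, YWHAE-201 (log2 2.18) lay above the upper quartile for YWHAE, 1.31. YWHAH-201 (log2 -2.31, on 86 counts with GST and 18 with wild type) lay below the lower quartile for YWHAH, -0.19. Those quartiles are of gene sums and not of single transcripts, so these placings do not compare like with like. For the mutant over GST, SFN at 0.73 lay within the quartiles of genes like it in GC (0.46 and 1.06), and YWHAB at -0.63 was below its lower quartile of -0.42.

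**Figure D5:**
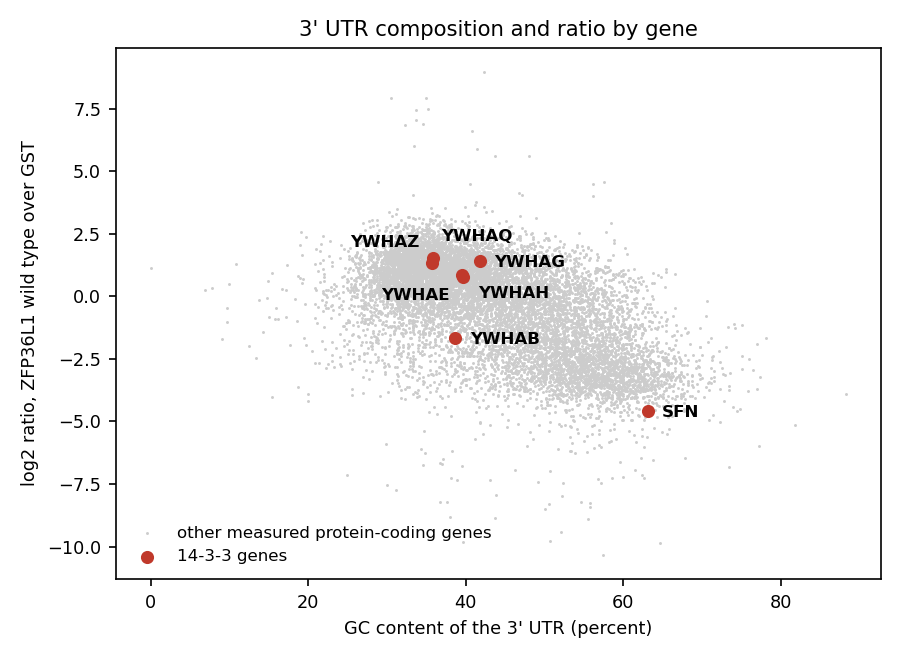
GC content of the 3' UTR in percent and log2 ratio of wild type over GST for measured protein-coding genes (grey points), with the 14-3-3 genes in red. SFN lies at the GC-rich, low end (63.1%, -4.59), and YWHAB (38.7%, -1.66) lies below the other YWHA genes, which share its range of GC.

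Counted as single transcripts, 17 forms of the 7 genes reached a mean of 10 counts. With wild type over GST 8 were called higher and 5 lower, where 23.4% and 42.9% of all 27464 measured transcripts were. With mutant over GST 4 were called higher and 2 lower, against 19.7% and 12.8% of all. With wild type over mutant 6 were called higher and 6 lower, against 26.2% and 45.9%. YWHAB-206 and YWHAZ-205 had 33 and 60 counts with the mutant and 0 in the other libraries, so they reached the minimum only through the mutant library and had to differ there. Among the 15 forms with counts in every library, 2 were called higher with the mutant over GST (YWHAZ-201 and YWHAH-201) and 2 lower, and 6 were called higher and 4 lower with wild type over mutant. These counts describe the forms that passed the minimum, not all forms. The shares of all transcripts given above include transcripts at 0 in a library. No share was computed for transcripts with counts in every library, so the calls among the 15 have no like share beside them. The 2 called lower with the mutant over GST were YWHAZ-211 and YWHAB-202, a minor YWHAB form (log2 -1.67).

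Few counts were assigned to copies of the members. The tables hold 19 annotated pseudogenes of the members, with 14.7, 4.74 and 6.24 estimated counts in all for GST, wild type and mutant, and the highest single one had 17.5 over all libraries. YWHAZ shared 15.1% of its 31-mers with transcripts of other genes, YWHAE 9.44%, YWHAQ 5.68%, and the other members 3.74% or less. Different members shared at most 0.396% with each other. Of annotated genes that overlap a member, C22orf24 lies opposite YWHAH, with 11, 7 and 24 counts. Whether counting used strand is not given in the sources used here.

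Other genes of the 14-3-3 pathway were taken from lists of client proteins, of kinases that create docking sites and of phosphatase subunits that remove them. All 32 listed clients were measured. With wild type over GST 11 were called higher and 11 lower, where 25.5% and 34.2% of all genes were, and the median log2 ratio was 0.52 against -0.04 for all genes. ZFP36L1 (log2 3.48) and IRS2, an adaptor of the insulin receptor (log2 2.52), were the highest. AKT1S1, a subunit of the growth-regulating mTORC1 complex (log2 -3.81), and the motor protein KIF1C (log2 -3.41) were the lowest. With the mutant over GST 3 clients were called higher and 1 lower, near the shares of all genes (9.00% and 5.13%), and with wild type over mutant 15 and 13, where 30.1% and 36.1% of all genes were.

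Of 22 kinases, 10 were called higher and 6 lower with wild type over GST, against 25.5% and 34.2% of all genes, and their median was 0.80 against -0.04. SGK1, a kinase related to AKT, stood at log2 2.75 and PRKD1 at 2.59, whereas AKT2 stood at -3.09 and PRKD2, a close relative of PRKD1, at -3.17. With the mutant over GST 0 kinases were called higher and 1 lower, against 9.00% and 5.13% of all genes, and with wild type over mutant 12 and 6, against 30.1% and 36.1%. Of 8 phosphatase subunits, 2 were called higher and 2 lower with wild type over GST, no more than the same shares of all genes (25.5% and 34.2%), at a median of 0.82 against -0.04. PPP2R1B (log2 1.5) and PPP1CA (log2 -3.91) were at the ends, next to PPP2CB (log2 1.43) and PPP2R1A (log2 -3.36). PPP2R1A and PPP2R1B encode alternative scaffold subunits of PP2A, and the first was lower and the other higher. With the mutant over GST no phosphatase subunit was called, where 9.00% and 5.13% of all genes were, and with wild type over mutant 5 were called higher and 2 lower, against 30.1% and 36.1%.

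The genes whose levels over the 3 libraries were most like those of the summed family were chosen from 9139 protein-coding genes with a mean of at least 100 counts, by Euclidean distance between centred log2 levels. They were ZNF91 (distance 0.01), PCTP (0.01), PFKFB2 (0.02), SFT2D1 (0.02) and ZNF302 (0.03). With 3 libraries, such closeness describes these values only.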

How the data were processed

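RNA from 3 pull-downs in J82 lysate was sequenced on a BGISEQ-500, 1 library each. The deposited tables give an estimated count per transcript, made by the authors with kallisto, per the submitters' processing notes, which also list DESeq2 and the hg19 build. The sources used here give neither their versions nor the annotation. Deposited TPM values are counts per effective length scaled to a fixed total, per the file headers, which also hold each transcript's length and effective length.

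Transcripts were joined by Ensembl identifier to GENCODE 29 (GRCh38), which matched 92.6% of them. Unmatched rows (3.79% to 4.20% of counts) were not used. All coordinates and sequences are from GENCODE 29. Of the 55 member transcripts, 52 had the same length there. Counts were summed per gene and rounded, and 14082 genes had a mean of at least 10. TMM factors (edgeR 4.0.16, R 4.3.3) were 1.03, 1.05 and 0.933 for GST, wild type and mutant. Log2 ratios used a prior count of 0.5, with exact Clopper-Pearson 95% intervals on the split of both libraries' counts, computed with scipy 1.17.1 and tested on simulated data. The simulated counts had Poisson error only and few changed genes, as many raised as lowered. They therefore do not show how scaling and intervals perform on libraries that differ as widely as these. Intervals of TPM were exact Poisson intervals scaled by length.

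Named transcripts held at least 10% of their gene's counts in 1 library and 100 counts in all, and others were named after their values were seen. From each pathway list the 2 highest and 2 lowest in wild type over GST were named, and 5 genes most like the family. The search for AUUUA and the groups of like GC content were chosen after seeing the data. The members and lists were chosen with earlier results of these data known.

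Alternatives were scaling by total counts, by the size factors of DESeq2 1.42.0, or by totals that leave out the 20 most abundant genes with mitochondrial and ribosomal RNA, TPM with a pseudocount of 0.5, no minimum count, a minimum of 100, protein-coding transcripts only, and members summed with their pseudogenes. For transcript shares TPM was used in place of counts, and for UAUUUAU the longest 3' UTR.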

Additional observations from a re-analysis of the deposited data

How the results depend on the processing

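YWHAQ, YWHAG and YWHAZ stayed at least 2-fold higher, and SFN at least 2-fold lower, with wild type over GST and over the mutant under all 8 alternatives, and YWHAB stayed lower over GST. YWHAQ ranged from 1.47 to 1.73 and SFN from -4.64 to -3.94 over GST. The summed family over GST passed 2-fold (log2 1.0) with totals that leave out the most abundant genes, a scaling that moved the all-gene median by 0.11. The number of members called lower for wild type over mutant was 1 instead of 2 with total counts, with those reduced totals, with no minimum count and with TPM, in each case through YWHAB. Of all genes, 34.3%, 32.8%, 24.3% and 28.9% were called lower in these settings, in the same order. The share with no minimum count is of 25228 genes. With TPM the number called higher for wild type over mutant was 5 instead of 4, through YWHAH (log2 1.14), where 32.3% of all genes were. With protein-coding transcripts only, YWHAH turned to -2.33 over GST and to -3.66 over the mutant, and YWHAE reached log2 2.16 over GST. In that setting 4 members were called higher and 3 lower with wild type, both over GST and over the mutant. Of all genes, 25.9% and 36.1% were so called over GST, and 30.6% and 38.1% over the mutant. With the mutant over GST, 1 member (YWHAH, log2 1.33) was called higher in that setting, where 10.8% of all genes were. For the mutant over GST, the all-gene median moved by -0.14 with total counts, -0.21 with the reduced totals and -0.19 with TPM, and genes called higher and lower went from 9.00% and 5.13% to 6.67% and 7.23%, 5.52% and 8.78%, and 3.83% and 5.18%. For wild type over mutant the same settings moved it by 0.17, 0.32 and 0.26. As a share of TPM, YWHAE-201 held 18.3%, 57.3% and 13.1% of YWHAE in GST, wild type and mutant. The longest annotated 3' UTR gave the same number of UAUUUAU sites for every member. No paired analysis was possible because each group has 1 library. Depth limits SFN most, with 32 counts with wild type.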
